A study of Macaca mulatta with 161 samples.

Results

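The genes described here are 6 claudins, CLDN3, CLDN4, CLDN6, CLDN7, CLDN10 and CLDN23, and the water and glycerol channel AQP3, measured in single inner cells of rhesus monkey (Macaca mulatta) blastocysts. They are 7 of the 16049 genes in the deposited table and were chosen for their levels by stage and against NANOG and SOX17, so these levels are descriptions of the choice and carry no test. All 7 genes had a row, and 6 of them had a mean of at least 1 FPKM, a fragment count divided by transcript length and library size, over the 161 cells, as did 9781 genes in all. CLDN10, with a mean of 0.20 FPKM, did not.

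The cells came from embryos made by fertilisation of oocytes from hormone-stimulated females and cultured to the blastocyst, and each cell is 1 library. There were 44 cells from early blastocysts (about day 5, small cavity), 39 from middle blastocysts (about day 5.5, cavity near mid-size), 52 from late blastocysts (about day 6, fully expanded cavity; the labels write later) and 26 from blastocysts labelled hatching (about day 7, out of the zona pellucida). No treatment or genotype separates the groups. Outer cells were stained with the membrane dye PKH26 before the embryos were taken apart, and unstained cells were taken as inner cells, which form the epiblast and the primitive endoderm.

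Claudins are membrane proteins of the tight junction, the belt that seals neighbouring epithelial cells to each other and sets which ions pass between them. In the blastocyst the outer layer, the trophectoderm, is the sealed epithelium. It moves sodium inward with the Na/K-ATPase, and water follows into the cavity, in the mouse partly through aquaporins such as Aqp3. CLDN3 and CLDN4 are barrier claudins of many epithelia and bind the enterotoxin of Clostridium perfringens. CLDN6 is known from embryonic epithelia and pluripotent stem cells, CLDN7 binds the adhesion protein EPCAM, CLDN10 forms ion pores in the kidney, and CLDN23 is found in gut epithelium.

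No label ties a cell to an embryo. Each stage was therefore treated as a single sample, cells were not used as replicates and no p-value is given. Differences are between means over cells of log2(FPKM + 1), with the SD between cells, and a gene counts as lower or higher where its difference reached 1 log2 unit. A gene counts as found in a cell at 1 FPKM or more. Reads recovered from the steps of the FPKM values had a median of 11.5 M (mega) a cell (3.05 to 19.4 M), with stage medians of 10.9, 12.4, 10.7 and 11.4 M from early to hatching. At the median FPKM of 1087 in early cells, CLDN4 rested on a median of 23194 reads, while the median hatching cell held 6.5 CLDN4 reads. Titles carry cell numbers, and neighbouring numbers may share an embryo or a day, which the labels do not say. Values are therefore also given for the cells of a stage with title numbers above and below the median number. These are called the upper and the lower title numbers. The titles of 2 middle and 5 late cells begin with HS, which is not explained. CLDN4 had a median of 5.76 FPKM and a highest value of 14.6 in these 5 late cells, against a median of 20.2 in all late cells. Without the HS cells none of the recomputed stage differences of the 7 genes moved by as much as the SD between cells.

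3 libraries stood apart. The cells are labelled as inner cells, and trophectoderm markers were examined to check this. The mean level of 13 such markers had a median of 2.22 log2 units in early, 2.07 in middle, 2.19 in late and 2.44 in hatching cells, within ranges of 1.25 to 3.50, 1.13 to 4.96, 0.98 to 5.59 and 1.59 to 3.72. VGLL1 was under 1 FPKM in at least 95% of the cells of the early, late and hatching stages, and PGF was so in late and hatching cells. Other markers of the list went the other way. Of the 11 with a mean of at least 1 FPKM, 3 were higher in hatching than in early cells, KRT19 by 6.78, and 3 were lower. Of all genes 11.3% were higher and 16.2% lower, and the mean marker level thus covers markers that differ in direction. 1 late cell, of title number 13, stood apart at 5.59, against 2.996 in the next late cell, and had 309 FPKM of CDX2, 383 of GATA2 and 159.96 of GATA3 beside 4.40 FPKM of NANOG and 1.74 of SOX17. It also had the highest CLDN4 (1712 FPKM) and CLDN3 (839.9 FPKM) of all late cells, but 0 FPKM of AQP3 and of CLDN23. Without this cell late minus middle was -5.45 for CLDN4, -4.90 for CLDN3 and -4.33 for AQP3. The late means without it were 4.44 ± 2.79 for CLDN4, 1.92 ± 2.42 for AQP3, 8.43 ± 0.63 for CLDN6 and 5.91 ± 1.36 for CLDN7. 1 middle cell, of title number 10, had a marker level of 4.96, against 3.78 in the next middle cell, and without it late minus middle was -5.31 for CLDN4, -4.64 for CLDN3 and -4.34 for AQP3. 1 early cell, of title number 9, formed a cluster of its own and had 6.45 FPKM of NANOG, where all other early cells had at least 46.1. It held the lowest CLDN4 (16.9 FPKM) and the highest AQP3 (1082 FPKM) of the early cells, which without it spread over 343 to 3627 FPKM of CLDN4 and 2.52 to 263 FPKM of AQP3. Without it hatching minus early was -8.41 for CLDN4, -4.68 for CLDN3 and -6.06 for AQP3. The part of trophectoderm-marked cells in the results was otherwise not tested.

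CLDN4 was among the most abundant messages of early and middle inner cells and was low in most hatching cells. It ranked 67th of 16049 genes by mean FPKM in early, 55th in middle, 863rd in late and 2024th in hatching cells. Its lowest, median and highest values were 16.9, 1087 and 3627 FPKM in early cells and 139, 1018 and 3459 FPKM in middle cells. Every cell of these 2 stages but the early cell of title number 9 held more than 100 FPKM, and the stages overlapped nearly throughout. Late cells spread from 0.232 FPKM over a median of 20.2 to 1712 FPKM, and hatching cells from 0 over 0.395 to 690.3 FPKM. The late cells thus covered the range between the middle and the hatching stage, and 12 of 52 late cells and 2 of 26 hatching cells still held 100 FPKM or more. Without the late cell of title number 13 the late median was 19.8 and the highest value 1184 FPKM.

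The mean log2 level of CLDN4 was 1.72 ± 2.74 in hatching cells (SD, n = 26 cells) and 10.00 ± 1.11 in early cells (n = 44), a difference of -8.28, the lowest of the 9781 genes compared. Late cells, at 4.56 ± 2.90 (n = 52), were 5.32 below middle cells at 9.88 ± 0.86 (n = 39), again the lowest difference of all genes. Hatching cells were 2.83 below late cells, which is about the SD between cells of either stage. Middle and early cells differed by -0.12, within the SD of both. The difference between hatching and late cells was -4.54 between cells of upper and -1.13 between cells of lower title numbers, so its size rests on which cells enter it.

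CLDN3 was found in most early and middle cells but varied far more between them than CLDN4. It had a lowest, median and highest value of 0.0895, 60.0 and 1129.7 FPKM in early cells and of 0.265, 110.2 and 994.7 FPKM in middle cells. The late values were 0, 0.291 and 839.9 FPKM, and those of hatching cells 0, 0.0262 and 333 FPKM. The medians of the late and hatching stages lay below 1 FPKM, although single cells reached the early range. CLDN3 was found in 39 of 44 early cells (88.6%, exact Clopper-Pearson 95% interval 75.4 to 96.2%), 36 of 39 middle cells (92.3%, 79.1 to 98.4%), 16 of 52 late cells (30.8%, 18.7 to 45.1%) and 5 of 26 hatching cells (19.2%, 6.55 to 39.4%). These intervals cover the counting of cells only. Its mean was 1.17 ± 2.44 in hatching and 5.76 ± 2.68 in early cells, a difference of -4.59, and 1.52 ± 2.29 in late and 6.26 ± 2.64 in middle cells, a difference of -4.74. Hatching and late cells differed by -0.35, well within the SD of either. Without the late cell of title number 13 the late mean was 1.36 ± 1.99 and the highest late value 115 FPKM.

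AQP3, the water and glycerol channel, was lower at the later stages as well, and its hatching level was the lowest of these 3 genes. Its lowest, median and highest values were 2.52, 106 and 1082 FPKM in early cells, 0.484, 95.4 and 476 FPKM in middle cells, 0, 0.267 and 129 FPKM in late cells, and 0, 0 and 7.79 FPKM in hatching cells. No hatching cell reached the early median, and the middle and early stages overlapped throughout. AQP3 was found in all 44 early cells, 38 of 39 middle cells (97.4%, 86.5 to 99.9%), 20 of 52 late cells (38.5%, 25.3 to 53%) and 3 of 26 hatching cells (11.5%, 2.45 to 30.2%). The mean was 0.28 ± 0.71 in hatching and 6.43 ± 1.38 in early cells, a difference of -6.15 that was the third lowest of all genes. It was 1.88 ± 2.41 in late and 6.25 ± 1.70 in middle cells, a difference of -4.37, and hatching cells were 1.60 below late cells.

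**Figure D1:**
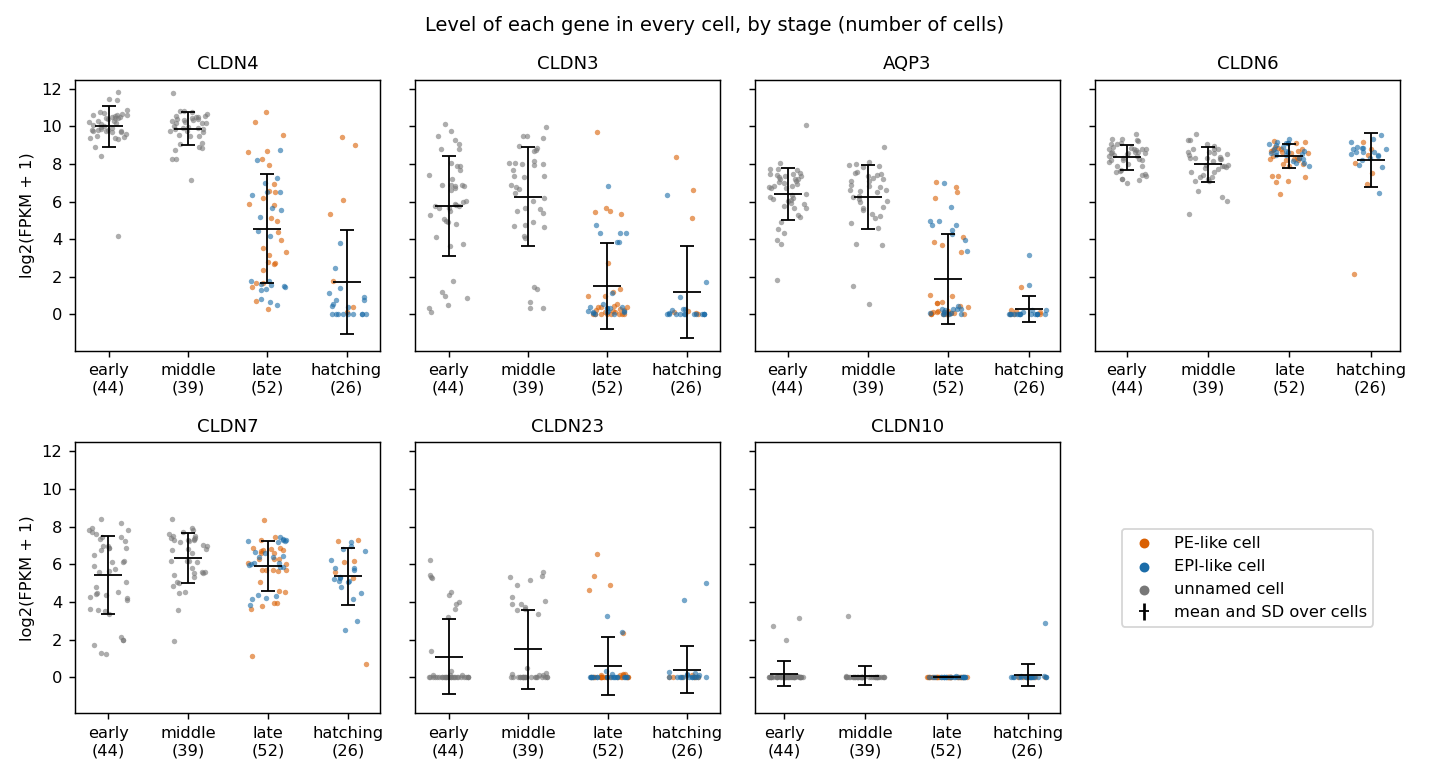
Level of each gene as log2(FPKM + 1) in every cell of the 4 stages, with the mean and SD over cells in black and points coloured by cell class. CLDN4, CLDN3 and AQP3 are lower in late and hatching cells (CLDN4 means 10.00, 9.88, 4.56 and 1.72 from early to hatching), while CLDN6 stays near 8 log2 units.

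CLDN6, known from embryonic epithelia and pluripotent cells, was found in every cell and differed little between stages. Its lowest, median and highest values were 124, 360.3 and 772 FPKM in early cells, 39.3, 280.0 and 769.8 FPKM in middle cells, 84.8, 379 and 650.5 FPKM in late cells, and 3.42, 380.4 and 746 FPKM in hatching cells. All 4 stages overlapped, and the 1 cell under 10 FPKM was a hatching cell. The means were 8.36, 7.98, 8.43 and 8.21 from early to hatching, and the difference between hatching and early cells was -0.15 against SDs of 1.42 and 0.67. With median-of-ratios scaling it was 0.04, so no direction is given.

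CLDN7, the partner of EPCAM, was also present throughout. Its lowest, median and highest values were 1.36, 56.3 and 342 FPKM in early, 2.83, 109 and 337 FPKM in middle, 1.20, 71.5 and 327 FPKM in late, and 0.633, 42.6 and 157 FPKM in hatching cells, and 25 of 26 hatching cells held at least 1 FPKM. Its means of 5.37 ± 1.52 in hatching and 5.43 ± 2.06 in early cells differed by -0.06, and by 0.11 with median-of-ratios scaling. The spread among early cells followed the title numbers, however. Early cells of upper title numbers (22 cells) had 3.99 ± 1.64 and those of lower ones (22 cells) 6.87 ± 1.28, a difference of -2.88 that was the sixth lowest of the 9781 genes, 3.95% of which were lower by 1 unit in that comparison. As a result CLDN7 differed between hatching and early cells by 1.16 within the upper and by -1.29 within the lower title numbers, and its stage difference has no settled sign.

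CLDN23 and CLDN10 were rare. CLDN23 was found in 11 of 44 early, 13 of 39 middle, 7 of 52 late and 2 of 26 hatching cells, its median was 0 FPKM at each stage, and its highest values were 73.5, 47.1, 93.3 and 31.6 FPKM. Single cells thus held it well above 10 FPKM, while 29 of 44 early cells listed it at 0. CLDN10 was found in 3 early cells, 1 middle cell, 0 of 52 late cells (upper 95% bound 6.85%) and 1 hatching cell, with a highest value of 8.56 FPKM.

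Read against all genes, 3 of the 6 claudin and aquaporin genes above the mean of 1 FPKM were lower in hatching than in early cells, where 16.2% of all genes were lower, and none was higher, where 11.3% were. The same 3 were lower in late than in middle cells, where 5.82% of all genes were lower and 3.95% higher. Between hatching and late cells 2 of the 6, CLDN4 and AQP3, were lower, with 9.87% of all genes, and 0 were higher, with 7.26%. Between middle and early cells 0 of the 6 were lower or higher, with 3.61% and 3.06% of all genes (2.17% and 6.001% with every cell scaled to the same summed FPKM). Since these stage values chose the genes, nothing is read from these counts. Of the steps between neighbouring stages, late minus middle was the one in which all 3 genes differed by over 4 units. The comparisons share cells, so they are not independent of each other.

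The makeup of the summed claudin FPKM in a cell was thereby different. FPKM is scaled by length, and different claudins are set side by side on that basis only. The annotation and the counting of reads shared by similar claudins are not given. The shares are thus of FPKM and not of molecules. CLDN4 made up a median of 69.9% of the summed FPKM of the 6 claudins in early cells, 61.4% in middle, 4.74% in late and 0.0903% in hatching cells. CLDN6 made up 19.5%, 16.8%, 75.7% and 88.4%, and CLDN7 3.12%, 6.20%, 13.6% and 9.72%. CLDN4 stood above CLDN6 in 42 of 44 early, 38 of 39 middle, 5 of 52 late and 3 of 26 hatching cells. The summed claudin level had a median of 1598 FPKM in early, 1603 in middle, 506 in late and 453 FPKM in hatching cells.

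The order of the genes by mean log2 level in early cells was CLDN4 (10.00), CLDN6 (8.36), AQP3 (6.43), CLDN3 (5.76), CLDN7 (5.43), CLDN23 (1.09) and CLDN10 (0.18). The gaps between AQP3, CLDN3 and CLDN7 were smaller than the SD between cells of each of them, so their order is not settled, while CLDN4 and CLDN6 were apart by more than the SD of either. In hatching cells the order was CLDN6 (8.21), CLDN7 (5.37), CLDN4 (1.72), CLDN3 (1.17), CLDN23 (0.39), AQP3 (0.28) and CLDN10 (0.11). There CLDN6 and CLDN7 stood apart from each other and from the rest by more than their SD, and the last 5 did not differ from their neighbours beyond the spread between cells.

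At the limit of 1 FPKM the 3 lower genes were nested in single cells. Every cell with CLDN3 or AQP3 at 1 FPKM also had CLDN4, at each of the 4 stages. In early and middle cells this was fixed, since all 44 and all 39 of them had CLDN4. In late and hatching cells it rests on the limit, as some cells held CLDN4 only just above it. A late cell had 4.74 log2 units of CLDN3 and 4.77 of AQP3 beside 1.54 of CLDN4. A hatching cell had 6.38 of CLDN3 beside 2.45 of CLDN4. In late cells 20 of 52 had CLDN4 alone of the 3, 18 had 2 of them, 9 had all 3 and 5 had none. In hatching cells 17 of 26 had none, 3 had CLDN4 alone and 2 had all 3. Among early cells 39 of 44 had all 3. CLDN4 also had the highest mean level of the 3 at each stage, and the part of level in this nesting was not tested.

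Within a stage the genes followed each other only in part. Over the 44 early cells CLDN3 had a Spearman rho of 0.75 with CLDN6 and 0.50 with CLDN7, and CLDN6 had 0.51 with CLDN7. The median rho over the 21 pairs of the 7 genes (15 pairs in late cells) was 0.16 in early, 0.11 in middle, 0.15 in late and -0.0027 in hatching cells. The highest pair in late cells was CLDN4 with AQP3, at 0.35 over 52 cells, and the highest in hatching cells was the same pair, at 0.67 over 26 cells. In hatching cells, however, AQP3 was at 0 in 17 of 26 cells and reached 1 FPKM in 3, and CLDN4 reached it in 9. That rho therefore ranks mostly ties and values under the limit. Cells of a stage may share embryos, which the labels do not name, and these values are descriptions.

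Late and hatching cells fell into primitive endoderm (PE)-like and epiblast (EPI)-like classes. The classes come from clustering within each stage with the claudins, AQP3, the junction genes and the markers left out, and were named from 10 epiblast, 12 endoderm and 13 trophectoderm markers. There were 29 PE-like and 23 EPI-like cells in the late stage and 7 PE-like and 19 EPI-like cells in the hatching stage, while the clusters of early and middle cells stayed unnamed. NANOG, a pluripotency factor of the epiblast, averaged 2.12 ± 0.55 in the 7 PE-like and 9.17 ± 0.35 in the 19 EPI-like hatching cells. SOX17, an endoderm factor, averaged 8.13 ± 0.71 in the PE-like and 0.36 ± 0.50 in the EPI-like hatching cells. The late PE-like class was mixed. NANOG averaged 4.07 ± 3.06 in the 29 PE-like and 9.17 ± 0.43 in the 23 EPI-like late cells, and 7 of the 29 held 100 FPKM of NANOG or more. SOX17 averaged 5.39 ± 2.21 in the PE-like and 0.34 ± 0.41 in the EPI-like late cells.

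In late cells no difference between the classes exceeded the SD between PE-like cells for the 6 genes above the mean of 1 FPKM, and those of CLDN4 and AQP3 moved with how the classes were set. CLDN4 had a lowest, median and highest value of 0.232, 30.3 and 1712 FPKM in PE-like and of 0.429, 17.1 and 431 FPKM in EPI-like cells, and the classes overlapped over nearly all of this range. The means were 5.07 ± 2.96 and 3.91 ± 2.75 in PE-like and EPI-like cells, a difference of 1.16 that was smaller than either SD. It was the 1 member of 6 past 1 unit, with 8.58% of all genes higher and 9.03% lower. It was 0.95 without the late cell of title number 13, 1.85 with classes from 20 principal components in place of 10, 0.22 when all stages were clustered together and -0.33 with classes set by marker score, so it holds no direction. CLDN3 differed by -0.14, CLDN6 by -0.41, CLDN7 by -0.34 and AQP3 by -0.57 between PE-like and EPI-like late cells. AQP3 was 1.50 lower in PE-like cells when all stages were clustered together and 1.64 lower with classes by marker score. Against middle cells, CLDN4, CLDN3 and AQP3 differed by -4.81, -4.80 and -4.62 in late PE-like cells and by -5.97, -4.66 and -4.05 in late EPI-like cells, with 6.75% and 9.58% of all genes lower by at least 1 unit.

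A group of 12 late PE-like cells joined early and middle cells when all stages were clustered together. Their median NANOG was 214 FPKM, against 1.88 FPKM in the 17 cells that were PE-like in both clusterings. CLDN4 averaged 6.40 ± 2.67 in these 12 cells and 4.13 ± 2.86 in those 17 cells. Both groups overlapped, from 5.47 to 1184 FPKM in the 12 and from 0.232 to 1712 FPKM in the 17 cells. The 1712 FPKM belongs to the late cell of title number 13, which had trophectoderm markers, and the mean of the 17 includes it. The medians were 90.7 FPKM in the 12 and 10.7 FPKM in the 17 cells, and 6 of the 12 and 2 of the 17 held 100 FPKM or more.

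In hatching cells CLDN4 and CLDN3 were found mostly in cells with SOX17. The 7 PE-like cells held 690.3, 507, 66.4, 39.3, 2.47, 0.308 and 0.0834 FPKM of CLDN4, and the 19 EPI-like cells had a lowest, median and highest value of 0, 0.304 and 13.1 FPKM. Of the PE-like cells 4 were above every EPI-like cell, and the other 3 lay within the EPI-like range. CLDN3 had 333, 95.6, 34.5, 0.131, 0.0966, 0.0717 and 0 FPKM in the PE-like cells and a lowest, median and highest value of 0, 0 and 82.0 FPKM in the EPI-like cells. The mean of CLDN4 was 4.59 ± 3.90 in PE-like and 0.67 ± 1.00 in EPI-like cells, a difference of 3.92, and that of CLDN3 was 2.93 ± 3.65 and 0.52 ± 1.48, a difference of 2.41. Both differences are about the size of the SD among the 7 cells or below it, and 14.2% of all genes were higher by at least 1 unit between these classes. CLDN6 was 1.26 lower in PE-like cells, with 33.7% of all genes lower, and this rests on 1 cell of 3.42 FPKM beside values of 121 to 569 in the other 6. AQP3 differed by 0.02 and CLDN7 by 0.16.

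The hatching cells with SOX17 at 1 FPKM or more were the 7 PE-like cells and 2 EPI-like cells, so a split by SOX17 nearly repeats the classes and adds no separate support. CLDN3 was found in 5 of the 9 hatching cells with SOX17 at 1 FPKM or more and in 0 of the 17 hatching cells without it. CLDN4 was found in 7 of these 9 and in 2 of these 17 cells. The 2 EPI-like cells among the 9 had only 1.55 and 1.76 log2 units of SOX17, against 6.74 to 8.90 in the 7 PE-like cells. Both held CLDN3 and CLDN4 at 1 FPKM or more, so these counts rest on 2 cells near the limit for SOX17. By class, CLDN3 was found in 3 of 7 PE-like and 2 of 19 EPI-like cells, and CLDN4 in 5 of 7 and 4 of 19. In late cells CLDN4 was found in 26 of 28 cells with SOX17 and in 21 of 24 without it, and CLDN3 in 7 of 28 and 9 of 24. Over the 26 hatching cells the Spearman rho of CLDN4 was 0.78 with SOX17 and -0.43 with NANOG, and that of CLDN3 was 0.63 and -0.58. Of these cells only 9 had CLDN4, 9 SOX17 and 5 CLDN3 at 1 FPKM or more. Many of the ranks are thus ties at 0 or values under the limit, and no graded relation is read from these rho. Among the 7 PE-like cells, all with SOX17, CLDN4 ran from 0.0834 to 690.3 FPKM. Over the 52 late cells the rho of CLDN4 was 0.08 with SOX17 and 0.07 with NANOG. Among the 13 hatching cells of lower title numbers the rho of CLDN4 with SOX17 was 0.63. In early and middle cells no rho of the 7 genes with NANOG or SOX17 reached 0.5.

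**Figure D2:**
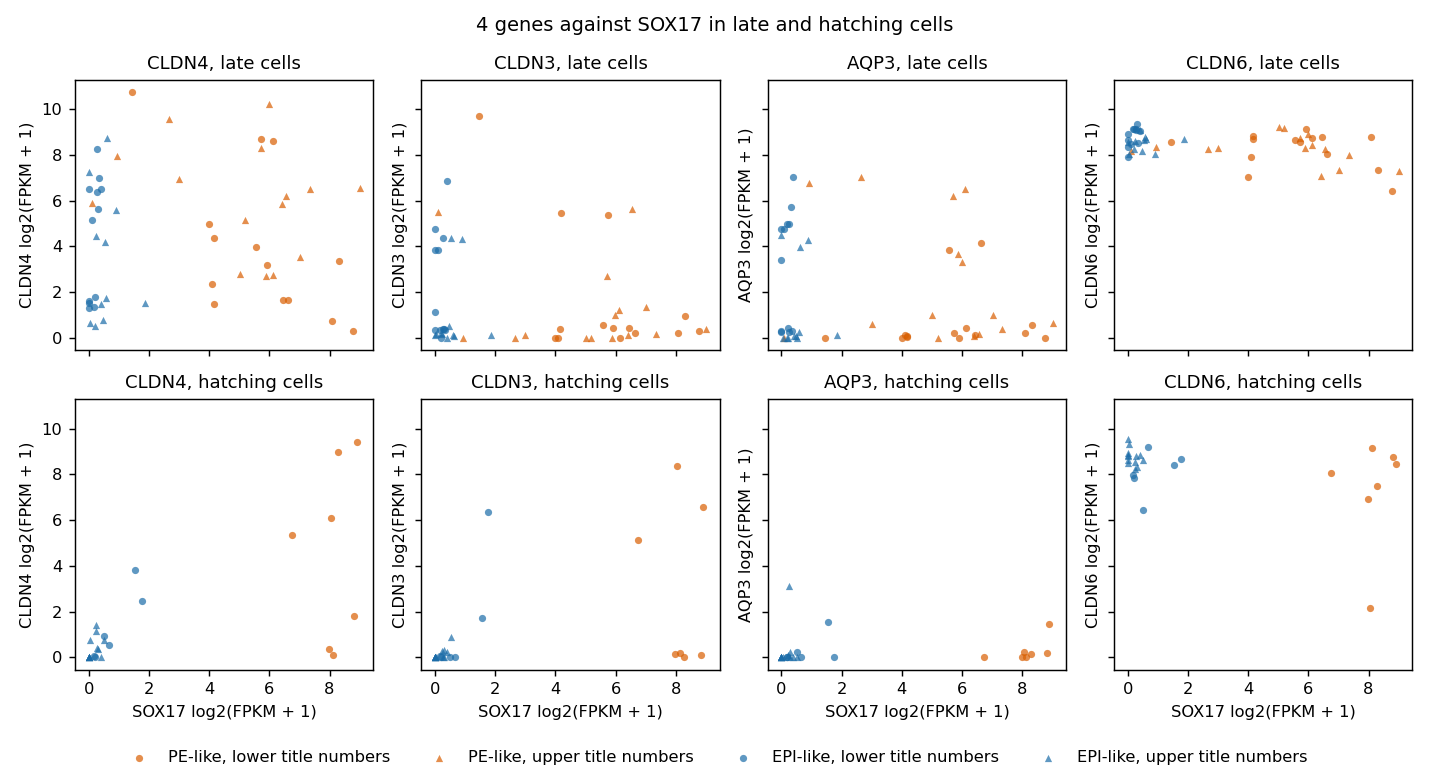
CLDN4, CLDN3, AQP3 and CLDN6 against SOX17, all as log2(FPKM + 1), in 52 late cells (top) and 26 hatching cells (bottom), coloured by class, with circles for lower and triangles for upper title numbers. The rho of CLDN4 with SOX17 is 0.08 in late cells, and in hatching cells 4 of the 7 PE-like cells lie above all EPI-like cells.

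All 7 hatching PE-like cells had lower title numbers, together with 6 EPI-like cells, and the upper title numbers held 13 EPI-like cells. CLDN4 averaged 0.38 ± 0.50 in the 13 upper and 3.07 ± 3.39 in the 13 lower hatching cells. Within the lower title numbers the 6 EPI-like cells averaged 1.30 ± 1.52, so class and title number can be told apart only over those 13 cells. Between hatching and late cells CLDN4 was 3.25 lower in EPI-like cells, AQP3 1.92 lower and CLDN3 1.08 lower, with 7.51% of all genes lower by 1 unit. In PE-like cells the differences of hatching from late were -0.48 for CLDN4, -1.33 for AQP3 and 1.48 for CLDN3, with 30.1% of all genes lower and 11.8% higher. Each of these but CLDN4 in EPI-like cells was within the SD between cells of one of the stages. The 17 late cells that were PE-like in both clusterings averaged 4.13 ± 2.86 for CLDN4 and 0.70 ± 1.28 for AQP3. Hatching PE-like cells averaged 4.59 ± 3.90 and 0.29 ± 0.53. The sign for CLDN4 in PE-like cells thus rests on which late cells enter the class.

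**Figure D3:**
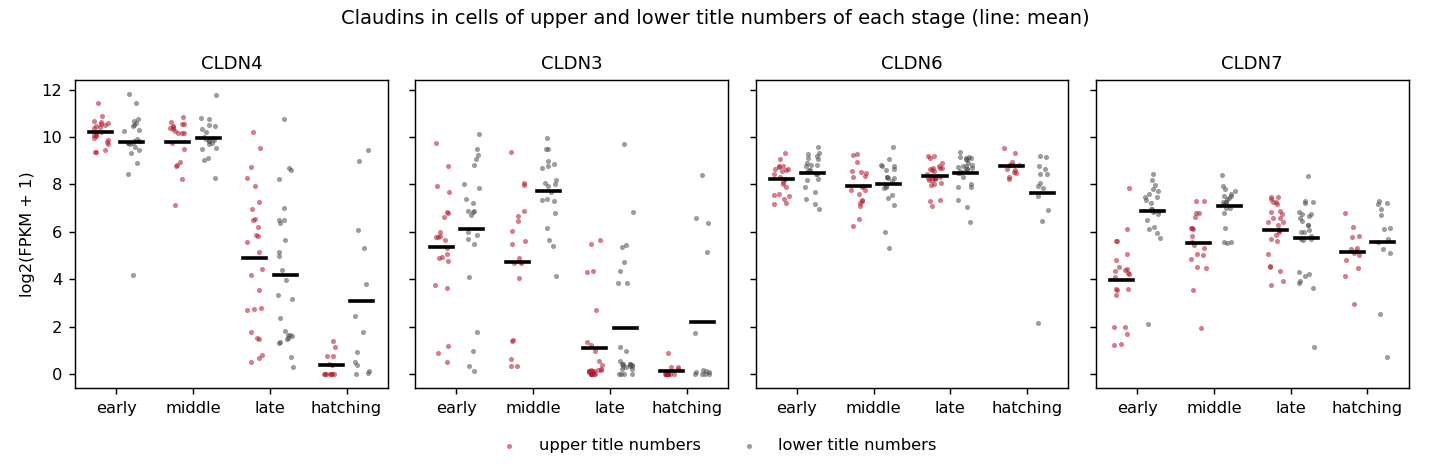
CLDN4, CLDN3, CLDN6 and CLDN7 as log2(FPKM + 1) in every cell, split at each stage into upper (red, left) and lower (grey, right) title numbers, with lines at the means. CLDN7 in early cells (3.99 upper, 6.87 lower) and CLDN3 in middle cells (4.72 upper, 7.72 lower) differ between them more than CLDN4 does at these stages.

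CLDN3 averaged 4.72 ± 2.74 in middle cells of upper and 7.72 ± 1.50 in those of lower title numbers, the lowest difference of all genes in that comparison (-2.99). CLDN7 had 5.52 ± 1.33 in the upper and 7.10 ± 0.80 in the lower title numbers, and both genes were thus lower in the upper ones, as were 5.05% of all genes. The comparison of late with middle cells gave a difference for CLDN3 of 1 unit or more within the upper and within the lower title numbers all the same, as it did for CLDN4 and AQP3.

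Other junction genes differed in both directions. In hatching minus early, the comparison used for all gene lists that follow unless another is named, 16.2% of all genes were lower and 11.3% higher. Of 17 further claudins, 16 had a row and 3, CLDN11, CLDN12 and CLDN15, had a mean of at least 1 FPKM. CLDN11, a claudin of myelin and the testis, averaged 2.05 ± 2.11 in hatching and 0.16 ± 0.58 in early cells, and was the 1 of the 3 that was higher. CLDN9, the protein-coding neighbour of CLDN6 in the RefSeq assembly T2T-MMU8v2.0, had a mean of 0.018 FPKM, while CLDN3 and CLDN4 are direct neighbours there. How reads shared by similar claudins were counted is not given in the sources used here.

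Among 18 other tight junction genes 9 passed the mean of 1 FPKM, of which 2 were lower and 2 higher in hatching than in early cells, with a median difference of 0.31 against -0.12 for all genes. F11R, the junctional adhesion molecule A, averaged 6.85 ± 0.54 in hatching and 8.23 ± 0.57 in early cells. OCLN (occludin) was higher by 1.85 and LSR, a protein of 3-cell contacts, by 1.63. Of 12 apical polarity genes above the mean 1 was lower, LLGL2 at -1.26, and 2 were higher, CRB3 at 1.57 and INADL at 1.05. CRB3, an apical Crumbs protein, had a median near 510.5 FPKM in hatching and 167 FPKM in early cells. These stage means pool PE-like and EPI-like cells, and the lists also differed between the hatching classes. In the 7 PE-like against the 19 EPI-like cells, 5 of the 9 tight junction genes were higher and 1 lower. Of the 12 polarity genes 6 were higher and 1 lower there, beside 14.2% and 33.7% of all genes.

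Of 12 adherens junction and desmosome genes 5 were lower and 2 higher, with a median of -0.39, beside 16.2% and 11.3% of all genes. CDH1 (E-cadherin) averaged 5.45 ± 1.93 in hatching and 7.81 ± 0.89 in early cells, a difference of -2.36, CDH3 differed by -1.34 and the desmosomal cadherin DSC2 by -1.53. PKP3, a desmosomal plaque protein, was higher by 1.74. Here too the hatching classes differed, with 4 of the 12 genes higher and 2 lower in PE-like than in EPI-like cells. Of all genes 14.2% were higher and 33.7% lower between these classes. Among 6 genes of the EPCAM and CLDN7 complex and its proteases, EPCAM itself differed by -0.51, with a mean of 9.41 ± 0.57 in early cells. ST14 (matriptase), which cleaves EPCAM, was lower by 1.98, and the protease PRSS8 higher by 1.68.

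**Figure D4:**
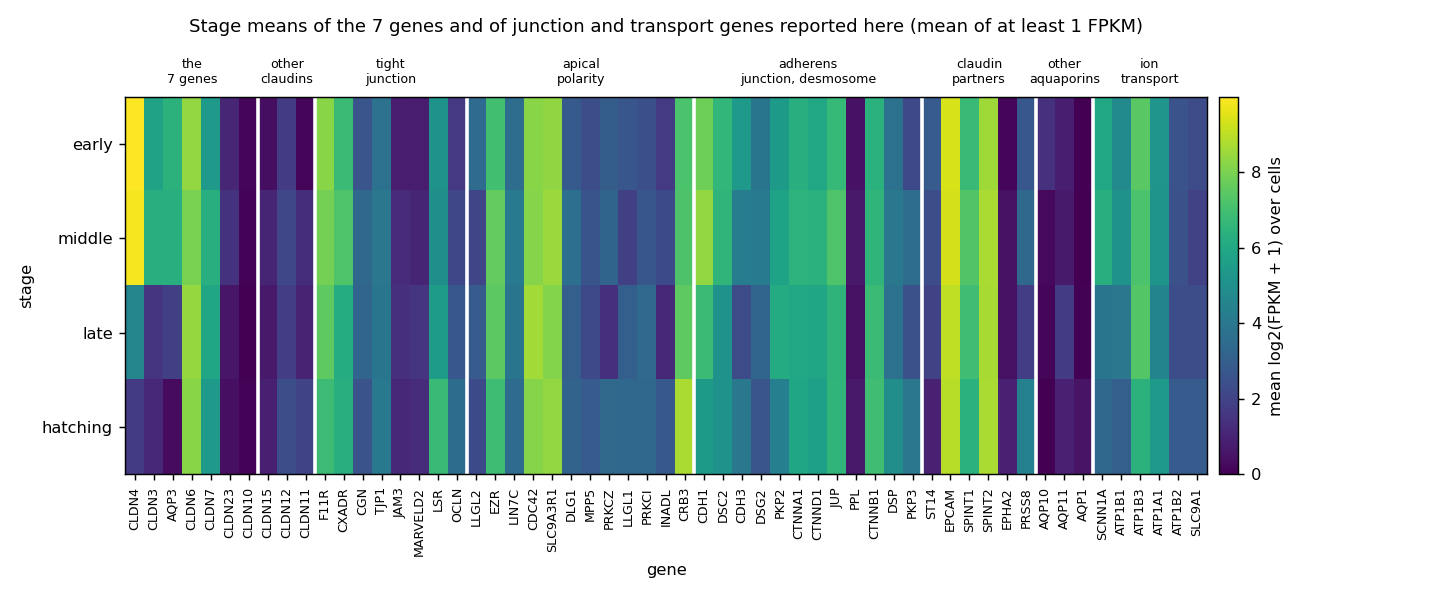
Mean log2(FPKM + 1) over cells of each stage (rows) for the 7 genes and for junction, polarity and transport genes reported here with a mean of at least 1 FPKM (columns, by list, each list sorted by hatching minus early). CLDN4, CLDN3 and AQP3 darken from the middle to the late stage, while F11R, CRB3 and EPCAM remain at 6 log2 units or above at every stage.

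Transport genes that serve the blastocyst cavity were examined beside AQP3. Of 6 ion transport genes above the mean, 2 were lower in hatching than in early cells and 0 higher, with a median of -0.42, beside 16.2% and 11.3% of all genes. SCNN1A, a subunit of the epithelial sodium channel, averaged 3.37 ± 1.71 in hatching and 5.95 ± 1.23 in early cells, a difference of -2.58, and ATP1B1, a Na/K-ATPase beta subunit, differed by -1.75. Both were also lower in late than in middle cells, by 2.44 and 1.17. Within the hatching stage 3 of the 6 ion transport genes were lower and 2 higher in PE-like than in EPI-like cells. Of all genes 33.7% were lower and 14.2% higher there. Of 13 other aquaporins 12 had a row, and 3, AQP1, AQP10 and AQP11, had a mean of at least 1 FPKM. AQP10, also a glycerol channel, was at 0 in every hatching cell and averaged 1.42 ± 1.56 in early cells.

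Of 18 factors of epithelial identity 4 were lower and 1 higher in hatching than in early cells, beside 16.2% and 11.3% of all genes. KLF4 averaged 2.12 ± 1.92 in hatching and 6.15 ± 0.53 in early cells, a difference of -4.03, HNF4A differed by -3.66 and ELF3, an epithelial ETS factor, by -2.67. CDX2, a trophectoderm factor, differed by -2.13. HNF4A also counts among the endoderm markers and CDX2 among the trophectoderm markers, so these lists share genes and are not separate results. Of 11 trophectoderm markers above the mean 3 were lower, among them DLX3 at -3.70 and PGF at -2.80, and 3 higher, among them the keratins KRT19 at 6.78 and KRT7 at 4.39. Of 10 epiblast markers 6 were higher and 1 lower, and of 12 endoderm markers 8 were higher and 2 lower. Of 3 mesenchymal transition genes above the mean, TWIST1 was lower by 1.19 and VIM (vimentin) higher by 1.08.

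The genes whose pattern over all 161 cells was most like each of the 6, by Pearson r among 9781 genes, followed the stages for CLDN4, CLDN3 and AQP3. For CLDN4 they were PDCL3 (0.79), ATP6V0D2 (0.79), TMEM176B (0.77), MAP1LC3B2 (0.76) and AQP3 (0.76), and after subtraction of the stage means these r were 0.19, 0.39, 0.20, 0.34 and 0.22. For AQP3 they were PDCL3 (0.81), SPIC (0.79), CLDN4 (0.76), TMEM176B (0.74) and DDX26B (0.72), with 0.34, 0.35, 0.22, 0.17 and 0.41 after subtraction. For CLDN3 they were CLDN4 (0.71), SLC12A3 (0.69), ATP6V0A4 (0.61), TMEM176B (0.60) and AQP3 (0.59), with 0.39, 0.41, 0.30, 0.08 and 0.10 after subtraction. ATP6V0D2 and ATP6V0A4 are subunits of the vacuolar proton pump, and SLC12A3 is a sodium chloride cotransporter.

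CLDN6 and CLDN7 had no such close match. The highest r of CLDN6 were with NUTF2 (0.47), IFITM1 (0.46), RPF2 (0.46), MRPL28 (0.45) and SNRPE (0.45), and those of CLDN7 with ELMOD1 (0.45), RPS2 (0.43), DPYSL2 (0.43), RNPS1 (0.42) and MT1M (0.41). Subtraction of the stage means left them at 0.43 to 0.45 for CLDN6 and 0.39 to 0.46 for CLDN7. CLDN23 reached 0.31 with CCDC64, 0.29 with CYTH1 and RAB3GAP1, and 0.28 with C10orf90 and FKBP1A. All these values share the cells and their depth, and a weak r in sparse values is no finding.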

How the data were processed

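Amplified cDNA of single cells was sequenced in pairs of 150 bp, per the labels' protocols. DESeq2, HTSeq, TopHat2 2.1.0 and FastQC stand in the submitters' processing notes without roles. Neither genome build nor annotation is given in the sources used here. The authors deposited 1 table of FPKM values for 16049 gene symbols and 161 cells, and every column matched a cell's title. Values were used as log2(FPKM + 1), which understates differences of low genes, with a filter at a mean of 1 FPKM. Fragments carry no molecular identifiers, so the recovered reads (13847 of 13857 genes, whole to 2e-06 in relative or 1e-05 in absolute terms) are not molecules.

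Cells were grouped by labelled stage. Classes used the 1000 most variable genes, 10 principal components and Ward clustering into 2 to 4 clusters by silhouette. A cluster was named where at least 3 of that type's markers were higher, above all other types, with at least 1 among its 10 leading genes, the last condition having been added after the clusters were seen. Doublets were not called, since cells were picked singly. No test was made, the intervals are exact Clopper-Pearson 95% intervals, and a call means a difference of 1 log2 unit. Named genes are the 7 genes, NANOG, SOX17, up to 4 of each list with the largest hatching minus early difference, and the 5 most alike by Pearson r. Some list genes stay in the counts but are not reported here by name. The members and lists were chosen with earlier results of these data known. The difference of mean log2 levels was tested on simulated data with planted differences. Read recovery, classes, counts of cells and correlations were not tested in this way. Alternatives covered pseudocounts of 0.1 and 10, filters, scalings, class settings, title numbers and left-out cells. Python 3.11.15, pandas 2.3.3, numpy 2.4.6, scipy 1.17.1 and scikit-learn 1.9.0 were used.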

Additional observations from a re-analysis of the deposited data

Results flagged for a closer look

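Among the 7 hatching PE-like cells, the only group of 4 to 10 cells examined, 4 of the 6 genes examined had 1 cell far from the others. The limit used for such a gap is passed by about 1 of 20 groups of normally distributed values. CLDN23 and AQP3 lay mostly at or near 0 here, and CLDN6 and CLDN7 were flagged for the same cell. The 4 genes are therefore not set against chance. CLDN6 was 2.14 log2 units in its lowest cell and CLDN7 was 0.71 in its lowest, and both belong to the same cell, which also had the highest CLDN3 (333 FPKM) of all hatching cells. AQP3 was 1.47 in its highest cell, which also had the highest CLDN4 (690.3 FPKM). CLDN23 was 0.13 in its highest cell, with 0 in the other 6, so this gap lies under the limit of 1 FPKM.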

How the results depend on the processing

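No paired analysis was possible because the numbers in the labels count cells within a stage and tie no cell of one stage to a cell of another. CLDN4, CLDN3 and AQP3 kept the sign of hatching minus early and of late minus middle under all alternatives run, with ranges of -9.96 to -5.93, -6.70 to -2.46 and -8.85 to -3.27 for the first. Of 347 differences recomputed, 1 changed sign past a call, CLDN4 between PE-like and EPI-like late cells, which was -0.33 by marker score. Without the late cell of title number 13 the count of genes past 1 unit there was 0. In the lower title numbers 5 genes were lower in hatching than in early cells, with 24.3% of all genes, and in the upper 1 was higher, with 15.5%. For middle minus early 1 gene was higher in the upper and in the lower title numbers and with cells scaled to the same summed FPKM, with 3.35%, 10.3% and 6.001% of all genes. For hatching minus late 1 gene was lower with a pseudocount of 10 and with medians, with 1.69% and 11.7% of all genes. With any value above 0 counted as found, 5 genes in late and 4 in hatching cells were found in at least 50% of cells, CLDN3 in exactly 13 of 26 hatching cells. In the lower title numbers 1 gene each passed a rho of 0.5 with NANOG in early, middle and late cells and with SOX17 in middle and hatching cells. The causes of these changes were not tested. Median-of-ratios scaling shifted the median difference of all genes between hatching and early cells, which was -0.12, to -0.0033, and the same summed FPKM shifted that between middle and early cells, 0.075, to 0.20. The medians of CLDN10 and CLDN23 rested on 0 reads at each stage. Those of CLDN3 rested on 3 reads in late and 0.5 in hatching cells, and those of AQP3 on 4.5 and 0. The part of depth in these low values was not tested.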
